A study of Mus musculus with 8 samples.

Results

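Leukocyte marker genes are described here in mouse pancreas with and without induced loss of Sel1L, which in the endoplasmic reticulum binds the ubiquitin ligase Hrd1. The list held 34 genes picked by name. It and the further lists below were made with earlier results of these data known. Of the 34 genes, 14 mark macrophages and monocytes, 6 neutrophils, 7 T cells and 6 B and plasma cells, while Ptprc (CD45) marks every leukocyte. A gene was measured where a feature of the array named it and no other gene. That held for 32 of the 34, each with 1 feature, among 18820 genes in all. Lck and Ly6g had no such feature and were not analysed here.

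Each of the 8 arrays held RNA of C57BL/6J mouse pancreas, and wild type and Sel1L knockout had 4 arrays each. Mice of both groups were fl/fl for Sel1L, with loxP sites around exon 6, and descended from ES cells of C57BL/6N origin. The knockout group was ERCre+, with Cre fused to the estrogen receptor under an actin promoter, and the control littermates were ERCre-. Both groups received tamoxifen (5 mg/ml in sunflower oil, 5 μl per g) on each of 3 days at an age of 8 to 20 weeks; no time from the last dose to dissection is given in the sources used here. An actin promoter also works in leukocytes and in the bone marrow, and the controls had no active Cre, so loss of Sel1L in the pancreas, its loss in blood cells and Cre activity cannot be told apart. The labels do not say that the numbered samples were separate animals, so the p-values reflect how much these samples vary, and that variation may be technical.

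Resident macrophages are the most common leukocytes of a healthy pancreas. They depend on the receptor CSF1R, which the ligands CSF1 and interleukin 34 activate, and they take up dying cells and release complement C1q. Neutrophils are drawn from the blood by chemokines such as CXCL1, and few T and B cells lie in the tissue outside lymph nodes. In whole tissue a marker's signal can fall because fewer cells of a type were present or because each held less RNA, and with these arrays both cannot be told apart.

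Values are given on the log2 scale of robust multi-array average (RMA) processing, on which a step of 1 is 2-fold, and differences are Sel1L knockout minus wild type. A gene was called changed at an adjusted p under 0.05 in limma's moderated test over all 18820 genes. Sel1l itself was lower in every knockout array, by 0.76 (difference -0.76, SE 0.0788, adjusted p = 0.000196). The exact permutation test (2-sided) gave p = 0.0286, the minimum for 4 against 4 arrays. Esr1, the gene of the receptor whose fragment is fused to Cre, was at 5.06 to 5.73 in wild type and 7.28 to 8.03 in knockout arrays. The 6 acinar marker genes measured averaged 13.77 to 13.86 in wild type and 13.50 to 13.58 in knockout arrays, near the top of the scale. Wild type replicate 2 lay below the other wild type arrays in Ptprc and in the means of macrophage, B cell and connective tissue genes. Its neutrophil and T cell marker means, 3.72 and 4.12, lay within the range of the other wild type arrays. Values without replicate 2 are given where it moved a result by most. That array was picked out from these values. Where it was the lowest wild type array, leaving it out could only lower the difference. Calls gained and signs turned without it are therefore no separate evidence of a fall in knockout arrays. Ranges over the fits that leave out each other array are given near the end. With 4 arrays a group, precision is limited.

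Of the 32 markers, 2 rose, 5 fell and 25 did not pass the test. That is 21.9% of the markers, against 28.7% of all 18820 genes (16.1% higher and 12.6% lower). For 6 of the 32 (18.8%) no knockout array lay within the wild type range or the reverse, against 32.2% of all genes. The median difference was -0.13 over the markers and -0.04 over all genes. The markers that rose were Ms4a7, on the macrophage list, and Ebf1, on the B cell list. Those that fell were the neutrophil genes Camp, Ltf and Trem1 and the T cell genes Cd8a and Bcl11b.

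**Figure D1:**
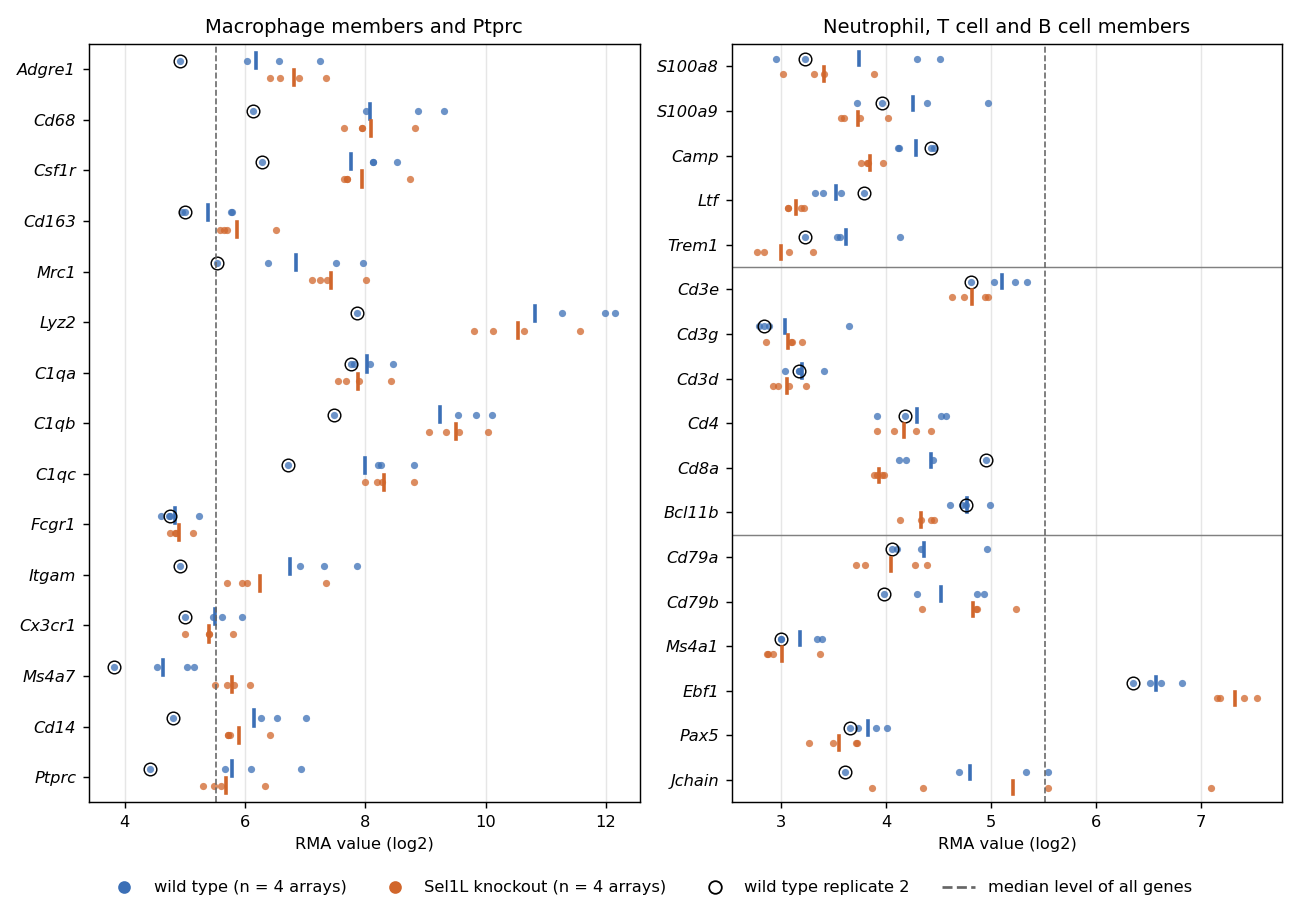
RMA values (log2, horizontal axis) of the 32 markers on each array, with macrophage genes and Ptprc on the left and neutrophil, T cell and B cell genes on the right, separated by grey lines; dots are arrays (4 per group), short bars are group means, circles mark wild type replicate 2, and the dashed line is the median level of all genes. Wild type replicate 2 lies far below the other wild type arrays for Lyz2, Cd68 and C1qb, and 16 of the 17 markers in the right panel lie below the dashed line on average.

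Macrophage genes varied more between wild type arrays than between groups. On the mean of the 14 genes, the wild type arrays read 7.25, 5.78, 7.80 and 7.23, and the knockout arrays 7.79, 6.99, 6.85 and 7.11. Wild type replicate 2 was the lowest, wild type replicate 3 and Sel1L knockout replicate 1 were the highest, and the groups overlapped. Gene by gene, replicate 2 was the lowest wild type array for 12 of the 14 genes and replicate 3 the highest for 13, and Sel1L knockout replicate 1 was the highest knockout array for all 14. The knockout arrays lay closer together, with a median SD of 0.41 against 0.97 in wild type (SDs over 4 arrays, medians over the 14 genes). That wild type spread includes replicate 2. On the mean of the 14 genes, wild type replicates 1, 3 and 4 ran from 7.23 to 7.80 and the 4 knockout arrays from 6.85 to 7.79.

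Lyz2 encodes lysozyme, made by macrophages and neutrophils. It read 11.99, 7.85, 12.15 and 11.27 on wild type arrays 1 to 4 and 11.57, 10.12, 9.82 and 10.65 on Sel1L knockout arrays 1 to 4. Wild type arrays thus spanned 19.6-fold, and knockout arrays 3.37-fold, within the wild type range. The difference was -0.28 (SE 0.852, limma adjusted p = 0.822), with a 95% interval of -2.19 to 1.63. Without wild type replicate 2, the lowest array for this gene, the difference was -1.27 (adjusted p = 0.039), past the threshold. Leaving out a low wild type array can only move it this way. In 2 of 17 planned settings the difference turned positive.

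The genes C1qb and C1qc encode chains of C1q, the first component of complement, which tissue macrophages make. C1qb read 9.84, 7.47, 10.11 and 9.55 on wild type arrays 1 to 4 and 10.04, 9.35, 9.06 and 9.56 on Sel1L knockout arrays 1 to 4. C1qc read 8.26, 6.72, 8.81 and 8.21 on wild type arrays 1 to 4 and 8.81, 8.20, 7.99 and 8.28 on Sel1L knockout arrays 1 to 4. For both genes wild type replicate 2 was the lowest of the 8 arrays and the other 7 overlapped between groups. Their differences were 0.26 (SE 0.506, limma adjusted p = 0.72) and 0.32 (SE 0.385, limma adjusted p = 0.547), and without that array they were -0.33 (adjusted p = 0.284) and -0.11 (adjusted p = 0.714), with the opposite sign. The gene of the C1qa chain varied less, between 7.76 and 8.46 in wild type, with a difference of -0.14 (adjusted p = 0.631), or -0.23 (adjusted p = 0.453) without replicate 2.

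Ms4a7 was the 1 macrophage marker that rose. It encodes a membrane protein with 4 membrane-spanning segments found on macrophages. It read 4.53, 3.82, 5.16 and 5.04 on wild type arrays 1 to 4 and 6.08, 5.70, 5.50 and 5.82 on Sel1L knockout arrays 1 to 4. Every knockout array lay above every wild type array, although wild type replicate 2 was again the lowest. Ms4a7 was 2.2-fold higher in knockout arrays, a difference of 1.14 (SE 0.267, limma adjusted p = 0.0121), and of 0.86 (adjusted p = 0.00811) without wild type replicate 2. It stayed past the threshold in every other setting that kept this gene. A filter for genes above the median level removed it, because its mean of 5.20 lay below the median of 5.52.

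The stretches upstream of the start sites of Lyz2, C1qb and C1qc, the macrophage markers with the highest signal and all lowest in wild type replicate 2, are shown with those of Ms4a7 and Ebf1, the markers that rose. They are the 250 bases before the most upstream RefSeq start (GRCm38.p6), 5′ to 3′ on the gene's strand. Capitals mark the motif GAGGAA or its reverse complement TTCCTC, the core bound by PU.1, a factor of the ETS family that myeloid cells and B cells need; the motif holds GGAA, the core shared by the ETS family.
Lyz2, chr10:117282273-117282522 (minus strand): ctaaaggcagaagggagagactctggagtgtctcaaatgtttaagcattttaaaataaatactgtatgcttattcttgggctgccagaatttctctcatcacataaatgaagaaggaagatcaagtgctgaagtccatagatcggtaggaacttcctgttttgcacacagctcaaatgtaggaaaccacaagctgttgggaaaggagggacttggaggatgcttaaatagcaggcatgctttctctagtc
C1qb, chr4:136886201-136886450 (minus strand): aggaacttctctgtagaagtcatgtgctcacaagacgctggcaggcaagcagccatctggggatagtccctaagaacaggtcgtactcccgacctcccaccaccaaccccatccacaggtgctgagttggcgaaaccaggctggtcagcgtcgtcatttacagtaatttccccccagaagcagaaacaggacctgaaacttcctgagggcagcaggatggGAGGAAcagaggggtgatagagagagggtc
C1qc, chr4:136892915-136893164 (minus strand): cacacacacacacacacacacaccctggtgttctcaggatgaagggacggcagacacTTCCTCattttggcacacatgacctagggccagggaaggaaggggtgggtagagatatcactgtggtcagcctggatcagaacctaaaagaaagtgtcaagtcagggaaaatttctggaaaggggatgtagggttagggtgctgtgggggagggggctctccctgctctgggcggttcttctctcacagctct
Ms4a7, chr19:11336147-11336396 (minus strand): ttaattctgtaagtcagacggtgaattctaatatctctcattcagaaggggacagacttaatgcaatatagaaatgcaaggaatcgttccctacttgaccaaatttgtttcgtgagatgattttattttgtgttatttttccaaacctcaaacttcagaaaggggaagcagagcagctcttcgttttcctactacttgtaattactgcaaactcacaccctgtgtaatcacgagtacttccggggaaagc
Ebf1, chr11:44617850-44618099 (plus strand): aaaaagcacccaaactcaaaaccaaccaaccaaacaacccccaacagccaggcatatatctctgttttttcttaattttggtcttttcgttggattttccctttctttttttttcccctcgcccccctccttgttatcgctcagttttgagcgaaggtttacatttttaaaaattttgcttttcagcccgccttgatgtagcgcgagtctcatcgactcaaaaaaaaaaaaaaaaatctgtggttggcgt
C1qb has 1 match, beginning 30 bases before the start, and C1qc has 1, beginning 193 bases before it. Lyz2, Ms4a7 and Ebf1 have 0 matches, which says only that these letters are not in these windows. Upstream windows were found for 25 of the 32 markers. Of these, 15 hold the motif (60.0%), against 23.1% of 27025 windows of the same length over all genes of the RefSeq table. By list, it is in 6 of 10 macrophage, 3 of 5 neutrophil, 4 of 5 T cell and 1 of 4 B cell windows, and in that of Ptprc.

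The other macrophage markers did not pass the test on all 8 arrays. The integrin alpha chain gene Itgam (CD11b), shared with neutrophils, read 7.31, 4.92, 7.87 and 6.91 on wild type arrays 1 to 4 and 7.34, 6.03, 5.69 and 5.95 on Sel1L knockout arrays 1 to 4, a difference of -0.49 (SE 0.588, limma adjusted p = 0.539). Cd14, a coreceptor for bacterial lipopolysaccharide, read 6.53, 4.79, 7.02 and 6.26 on wild type arrays 1 to 4 and 6.42, 5.72, 5.74 and 5.71 on Sel1L knockout arrays 1 to 4, a difference of -0.25 (SE 0.407, limma adjusted p = 0.659). For both genes the 3 wild type arrays other than replicate 2 lay above 3 of the 4 knockout arrays, and Sel1L knockout replicate 1 lay among them. Without wild type replicate 2 the differences were -1.11 (adjusted p = 0.0566) and -0.70 (adjusted p = 0.0422), so that only the second passed. Cd68, a lysosomal glycoprotein, differed by 0.01 (adjusted p = 0.992), or -0.64 (adjusted p = 0.18) without that array. Csf1r, the receptor for the macrophage growth factors, differed by 0.18 (adjusted p = 0.787), or -0.32 (adjusted p = 0.374) without it. Neither passed either way, and both changed sign.

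The remaining macrophage markers had wide intervals. Adgre1 (F4/80) read 6.03, 4.91, 7.24 and 6.56 on wild type arrays 1 to 4 and 7.35, 6.58, 6.41 and 6.90 on Sel1L knockout arrays 1 to 4, a difference of 0.63 (SE 0.425, limma adjusted p = 0.285), and of 0.20 (adjusted p = 0.626) without wild type replicate 2. Mrc1, the mannose receptor CD206, differed by 0.58 (adjusted p = 0.361) with a 95% interval of -0.46 to 1.63, or by 0.14 (adjusted p = 0.775) without that array. Cd163, a scavenger receptor for hemoglobin complexes, differed by 0.48 (adjusted p = 0.182) with an interval of -0.10 to 1.06, or by 0.36 (adjusted p = 0.335) without it. On all 8 arrays the intervals of these 3 genes include 0 and also a 2-fold rise. Fcgr1, the Fc receptor CD64, and Cx3cr1, the fractalkine receptor, differed by 0.06 (adjusted p = 0.751) and -0.11 (adjusted p = 0.722), or by 0.04 (adjusted p = 0.878) and -0.28 (adjusted p = 0.286) without it. On all 8 arrays 1 of 14 macrophage markers rose and 0 fell (median difference 0.12), and without wild type replicate 2, where 25.4% of all genes were called, 1 rose and 2 fell (median -0.25).

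**Figure D2:**
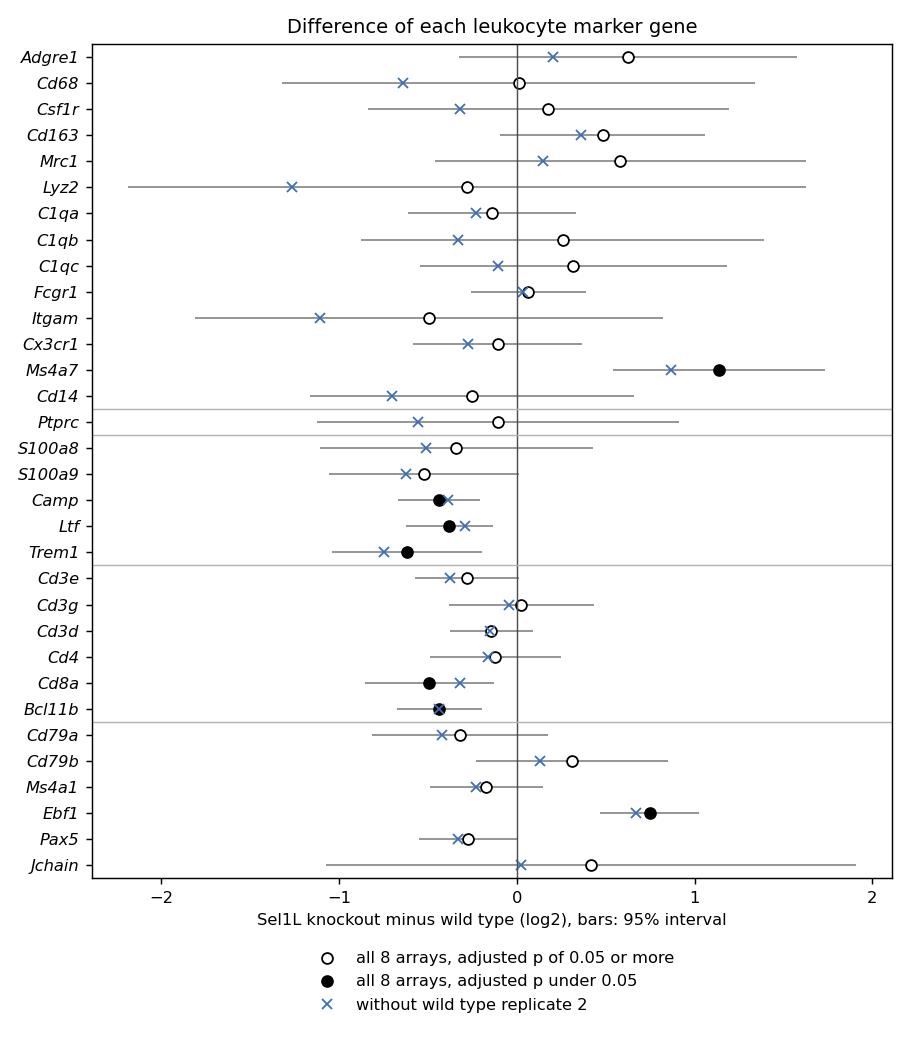
Difference between Sel1L knockout and wild type (log2, horizontal axis) for each of the 32 markers; circles use all 8 arrays (filled where the adjusted p is under 0.05), bars are 95% intervals of the moderated test, and blue crosses leave out wild type replicate 2. Crosses lie to the left of the circles for each of the 14 macrophage genes, by most for Lyz2, Cd68, Itgam and C1qb.

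A list of 24 other genes of macrophages and monocytes gave 20 measured genes, none of them a marker above. On this list 0 rose and 0 fell by limma's adjusted p; 1 gene had an unadjusted p under 0.05, and the median difference was 0.13. Its mean read 6.59, 5.29, 7.10 and 6.54 on wild type arrays 1 to 4 and 7.04, 6.33, 6.14 and 6.45 on knockout arrays 1 to 4, low in wild type replicate 2 and overlapping between groups. Without that array 1 gene of the list fell (Fcer1g, the gene of the Fc receptor gamma chain, -0.78 (adjusted p = 0.042)) and 0 rose, and the median difference was -0.18, of the opposite sign. Stellate cell and fibroblast genes (10 measured, 0 called, and 1 lower without replicate 2) averaged 7.15 in wild type replicate 2, 8.28 to 8.69 in wild type replicates 1, 3 and 4 and 7.93 to 8.72 in knockout arrays. Replicate 2 was the lowest wild type array for all 10 of them, as well as for all 5 mesothelial genes, whose mean was 4.77 there against 5.77 to 6.03. Islet genes (6 measured) ran the other way. Among wild type arrays their mean was highest in replicate 2, at 9.61, and lowest in replicate 3, at 8.27. Sel1L knockout replicate 1 was the lowest knockout array for all 6. The part of these other cells in the macrophage results was not tested.

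**Figure D3:**
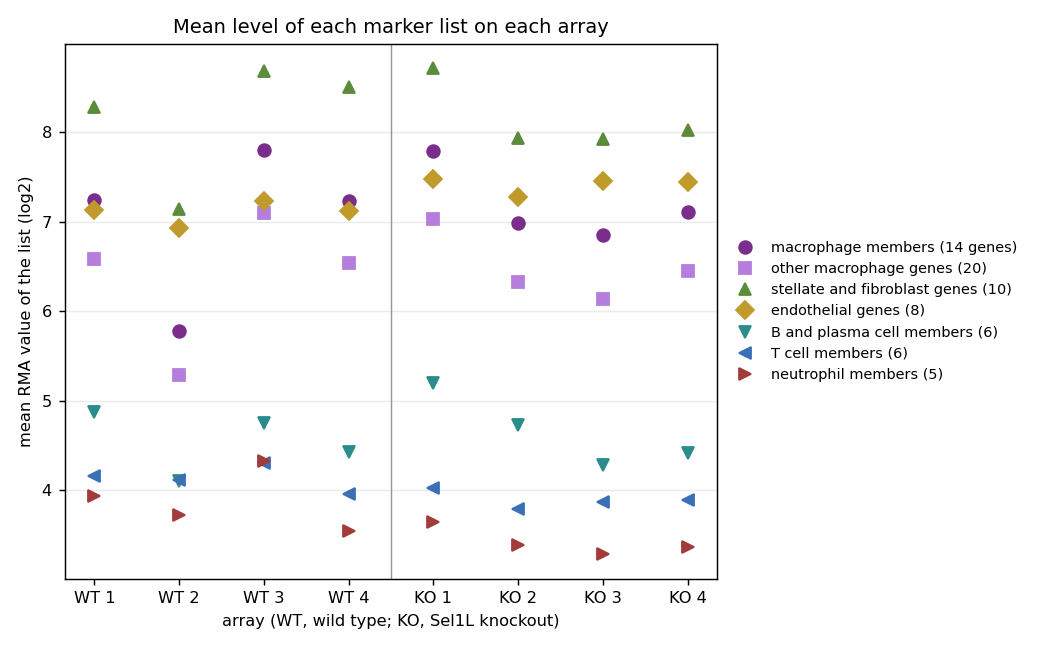
Mean RMA value (log2, vertical axis) of 7 marker lists on each of the 8 arrays (horizontal axis; WT, wild type; KO, Sel1L knockout); each symbol is the mean over a list's measured genes, to be compared between arrays and not between lists. Both macrophage lists and the stellate and fibroblast list are lowest in wild type replicate 2, and the neutrophil list is at 3.28 to 3.65 in knockout and 3.54 to 4.33 in wild type arrays.

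A further fit, chosen after the data had been seen, took account of the level of other macrophage genes. It used the mean of the 20 other macrophage genes as a covariate for each of the 18820 genes, of which 33.5% were then called. The covariate was 5.29 in wild type replicate 2 and 6.14 to 7.10 on the other arrays. How far the fit rests on that array was not tested. The covariate also followed genes of other cells. Slopes on it ran from 0.22 (Fcgr1) to 2.41 (Lyz2) for macrophage markers. They ran from 0.21 (Pdgfrb) to 1.40 (Col3a1) for stellate and fibroblast genes. For islet genes they were negative, from -1.04 (Iapp) to -0.33 (Ins2). The fit thus does not separate macrophage level from the make-up of the tissue. At equal covariate level, 2 macrophage markers were higher in knockout arrays, Ms4a7 by 1.06 (SE 0.116, adjusted p = 0.000198) and Adgre1 by 0.49 (SE 0.137, adjusted p = 0.0213). Itgam and Cd14 were lower, with differences of -0.68 (SE 0.113, adjusted p = 0.00188) and -0.38 (SE 0.108, adjusted p = 0.0239). The difference was 0.19 (SE 0.0797, adjusted p = 0.0853) for C1qc, 0.03 (SE 0.117, adjusted p = 0.842) for Csf1r and -0.55 (SE 0.225, adjusted p = 0.0856) for Lyz2, and these 3 did not pass. Outside the macrophage list, S100a9 at -0.57 (SE 0.186, adjusted p = 0.0395) and Cd3e at -0.31 (SE 0.0943, adjusted p = 0.0305) passed here but not without the covariate.

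Ptprc, which encodes CD45, the phosphatase on the surface of all leukocytes, stood in for leukocytes as a whole. It read 6.11, 4.43, 6.94 and 5.66 on wild type arrays 1 to 4 and 6.33, 5.49, 5.30 and 5.60 on Sel1L knockout arrays 1 to 4. Wild type replicate 2 was the lowest and replicate 3 the highest of the 8 arrays, and the groups overlapped. The difference was -0.10 (SE 0.455, limma adjusted p = 0.875), with a 95% interval of -1.12 to 0.91 (exact 2-sided permutation test, p = 0.886). The sign changed when single arrays were left out, from -0.56 without wild type replicate 2 to 0.28 without wild type replicate 3, and none of these passed.

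Neutrophil markers were dim on every array and their 5 differences were all negative. Camp, the gene of the antimicrobial peptide cathelicidin, read 4.12, 4.43, 4.45 and 4.11 on wild type arrays 1 to 4 and 3.97, 3.82, 3.81 and 3.76 on Sel1L knockout arrays 1 to 4. All 4 knockout arrays lay below all 4 wild type arrays, and the difference was -0.44 (SE 0.104, limma adjusted p = 0.0128). Ltf, the gene of lactoferrin, an iron-binding granule protein, read 3.32, 3.79, 3.56 and 3.40 on wild type arrays 1 to 4 and 3.07, 3.22, 3.19 and 3.07 on Sel1L knockout arrays 1 to 4, again without overlap, and the difference was -0.38 (SE 0.109, limma adjusted p = 0.0278). Trem1, an activating receptor of neutrophils and monocytes, read 3.55, 3.23, 4.13 and 3.53 on wild type arrays 1 to 4 and 3.30, 2.76, 2.84 and 3.07 on Sel1L knockout arrays 1 to 4. The highest knockout array overlapped with wild type replicate 2, and the difference was -0.62 (SE 0.189, limma adjusted p = 0.0355).

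S100a8 and S100a9 encode the subunits of calprotectin, the main cytosolic protein of neutrophils. S100a8 read 4.29, 3.22, 4.51 and 2.95 on wild type arrays 1 to 4 and 3.88, 3.40, 3.01 and 3.31 on Sel1L knockout arrays 1 to 4, a difference of -0.34 (SE 0.342, limma adjusted p = 0.468), or -0.51 (adjusted p = 0.294) without wild type replicate 2. S100a9 read 4.39, 3.96, 4.96 and 3.72 on wild type arrays 1 to 4 and 4.02, 3.75, 3.57 and 3.60 on Sel1L knockout arrays 1 to 4, a difference of -0.52 (SE 0.239, limma adjusted p = 0.126). Neither passed, and wild type replicates 1 and 3 were the highest arrays for both genes. So 3 of 5 neutrophil markers fell and 0 rose, with a median difference of -0.44.

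The neutrophil genes lay between 3.30 and 4.06 on average over the arrays, below the median level of all genes. Among the 4705 dimmest genes the median difference was -0.17 and 13.7% fell against 0.383% that rose; among the next 4705 the median was -0.11, with 15.4% falling and 8.23% rising. After cyclic loess normalization these medians were -0.02 and -0.05. Camp remained lower then, with -0.34 (adjusted p = 0.046), while Ltf and Trem1 missed the threshold with -0.25 (adjusted p = 0.133) and -0.49 (adjusted p = 0.116). Ltf also missed it on leaving out Sel1L knockout replicate 1, 3 or 4, or wild type replicate 3 (differences of -0.40 to -0.36, adjusted p 0.0555 to 0.0714), and Trem1 on leaving out Sel1L knockout replicate 2, 3 or 4, or wild type replicate 1, 3 or 4 (differences of -0.65 to -0.45, adjusted p 0.0523 to 0.0925). After quantile normalization Camp was also the 1 neutrophil marker called, with -0.40 (adjusted p = 0.0284).

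Of 11 other neutrophil genes measured, 2 fell and 0 rose, with a median difference of -0.28; without wild type replicate 2, 4 fell (median -0.39). On all arrays 10 differences were negative and 1 positive. The positive one was Lcn2, not called, at 1.15 (SE 0.496, limma adjusted p = 0.107), or 0.67 (adjusted p = 0.184) without wild type replicate 2. Il1b, the gene of the inflammatory cytokine interleukin 1 beta, made by neutrophils and macrophages, read 5.13, 4.28, 5.23 and 4.46 on wild type arrays 1 to 4 and 4.16, 3.41, 3.22 and 3.53 on Sel1L knockout arrays 1 to 4. Every knockout array lay below every wild type array, and the difference was -1.19 (SE 0.254, limma adjusted p = 0.00795). Itgb2, the integrin beta chain (CD18) that pairs with the product of Itgam on myeloid cells and with other alpha chains on lymphocytes, read 8.29, 7.12, 8.50 and 7.92 on wild type arrays 1 to 4 and 7.64, 6.29, 5.52 and 6.17 on Sel1L knockout arrays 1 to 4. Sel1L knockout replicate 1 overlapped with wild type replicate 2, and the difference was -1.55 (SE 0.429, limma adjusted p = 0.0241). The call for Itgb2 was lost on leaving out Sel1L knockout replicate 2, 3 or 4, or wild type replicate 1 or 3 (differences of -1.51 to -1.26, adjusted p 0.0558 to 0.0644) and with trend and robust variance (adjusted p = 0.063).

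T cell markers were also dim, and 5 of the 6 measured had negative differences. Bcl11b, a transcription factor that T cells need to develop, read 4.73, 4.76, 4.99 and 4.61 on wild type arrays 1 to 4 and 4.45, 4.42, 4.13 and 4.33 on Sel1L knockout arrays 1 to 4. The groups did not overlap and the difference was -0.44 (SE 0.107, limma adjusted p = 0.0146). Cd8a, the CD8 coreceptor of cytotoxic T cells, read 4.44, 4.95, 4.18 and 4.12 on wild type arrays 1 to 4 and 3.91, 3.97, 3.88 and 3.96 on Sel1L knockout arrays 1 to 4. The knockout arrays lay within a 1.06-fold span below all wild type arrays, of which replicate 2 was the highest, and the difference was -0.49 (SE 0.162, limma adjusted p = 0.0467). Without replicate 2 the difference was smaller and still called, at -0.32 (adjusted p = 0.0408).

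The CD3 chains, which carry the signal of the T cell receptor, did not pass. Cd3e read 5.02, 4.81, 5.34 and 5.22 on wild type arrays 1 to 4 and 4.94, 4.62, 4.74 and 4.97 on Sel1L knockout arrays 1 to 4, a difference of -0.28 (SE 0.13, limma adjusted p = 0.129), and the groups overlapped. Cd3g and Cd3d differed by 0.02 (adjusted p = 0.93) and -0.14 (adjusted p = 0.316). Cd4, the coreceptor of helper T cells, read 4.57, 4.17, 4.52 and 3.91 on wild type arrays 1 to 4 and 4.42, 3.91, 4.28 and 4.07 on Sel1L knockout arrays 1 to 4, a difference of -0.12 (SE 0.165, limma adjusted p = 0.597). Thus 2 of 6 T cell markers fell and 0 rose, with a median difference of -0.21. On average over the arrays the 6 lay between 3.05 and 4.96, among the dimmest 4705 genes and the next 4705. Of those genes 13.7% and 15.4% fell, with median differences of -0.17 and -0.11, against 12.6% falling among all genes. Whether T cell markers fell more often than other genes of similar level was not tested. Without wild type replicate 2 Cd3e fell as well, with -0.38 (adjusted p = 0.0447). After cyclic loess Bcl11b was the 1 T cell marker called, with -0.38 (adjusted p = 0.0298), against -0.40 (adjusted p = 0.091) for Cd8a, whose call was also lost on leaving out Sel1L knockout replicate 1, 2, 3 or 4, or wild type replicate 1 (differences of -0.51 to -0.48, adjusted p 0.085 to 0.104). Among 13 other T cell genes, 2 fell and 0 rose (median -0.28): Cd27, a costimulatory receptor of the TNF receptor family, by a difference of -0.32 (SE 0.0794, limma adjusted p = 0.0146), and Cd2, an adhesion receptor, by -0.36 (SE 0.104, limma adjusted p = 0.0277). Without wild type replicate 2, 1 of the 13 was called. After cyclic loess neither was called, with adjusted p = 0.108 and 0.0738, and Cd2 was not called on leaving out Sel1L knockout replicate 2, 3 or 4, or wild type replicate 1, 2 or 4 (differences of -0.38 to -0.31, adjusted p 0.0508 to 0.0774) either.

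Of the B cell list, Ebf1 rose and no gene fell. Ebf1 encodes a transcription factor that commits precursors to the B cell lineage and is also present in stromal cells and fat cell precursors. It read 6.51, 6.35, 6.81 and 6.62 on wild type arrays 1 to 4 and 7.41, 7.15, 7.54 and 7.18 on Sel1L knockout arrays 1 to 4. Every knockout array lay above every wild type array, which is a 1.68-fold rise and a difference of 0.75 (SE 0.124, limma adjusted p = 0.00231). The call held under every setting tried, with adjusted p-values up to 0.0087.

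The genes more restricted to B cells did not pass the test. Pax5, the factor that keeps B cell identity, read 4.01, 3.65, 3.73 and 3.90 on wild type arrays 1 to 4 and 3.72, 3.71, 3.27 and 3.49 on Sel1L knockout arrays 1 to 4, a difference of -0.27 (SE 0.124, limma adjusted p = 0.124). Cd79a and Cd79b encode the signalling chains of the B cell receptor and differed by -0.32 (adjusted p = 0.293) and 0.31 (adjusted p = 0.352). Cd79b read 4.86, 3.98, 4.93 and 4.29 on wild type arrays 1 to 4 and 5.23, 4.85, 4.34 and 4.87 on Sel1L knockout arrays 1 to 4, with overlapping groups, and differed by 0.13 (adjusted p = 0.679) without wild type replicate 2. Ms4a1 (CD20) was near the bottom of the scale, at 3.18 ± 0.212 in wild type and 3.01 ± 0.242 in knockout arrays (SD, n = 4 each), and differed by -0.17 (adjusted p = 0.381).

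Jchain, the joining chain of secreted IgA and IgM and a marker of plasma cells, varied most within the knockout group. It read 5.54, 3.61, 5.33 and 4.69 on wild type arrays 1 to 4 and 7.09, 5.54, 3.87 and 4.35 on Sel1L knockout arrays 1 to 4. Sel1L knockout replicate 1 was the highest array and wild type replicate 2 the lowest, and knockout arrays spanned 9.35-fold. The difference was 0.42 (SE 0.666, limma adjusted p = 0.654), with a 95% interval of -1.07 to 1.91, and 0.02 (adjusted p = 0.983) without wild type replicate 2. In all, 1 of 6 B cell markers rose and 0 fell, with a median difference of 0.07, and the same counts with a median of -0.11 without that array. Of 15 other B and plasma cell genes 1 fell, Fcrla, an Fc receptor-like protein of B cells, with a difference of -0.33 (SE 0.0997, limma adjusted p = 0.036), and 0 rose (median -0.15), while 3 fell without wild type replicate 2. After cyclic loess Fcrla was not called (adjusted p = 0.174), nor on leaving out Sel1L knockout replicate 1, 3 or 4, or wild type replicate 1, 3 or 4 (differences of -0.34 to -0.26, adjusted p 0.0513 to 0.0908).

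Other leukocyte types were read from further lists. Beside the counts on these lists and on those above stand the shares over all 18820 genes, of which 16.1% rose and 12.6% fell. Of 10 natural killer cell genes, 2 fell and 0 rose. Eomes, a transcription factor of natural killer and cytotoxic T cells, read 4.22, 4.02, 3.73 and 3.67 on wild type arrays 1 to 4 and 3.34, 3.18, 3.01 and 3.30 on Sel1L knockout arrays 1 to 4, without overlap, and the difference was -0.70 (SE 0.134, limma adjusted p = 0.00477). Klrb1c (NK1.1), a surface receptor, had a difference of -0.39 (SE 0.119, limma adjusted p = 0.0359), which was not called after cyclic loess (adjusted p = 0.169) or on leaving out Sel1L knockout replicate 1, 2, 3 or 4, or wild type replicate 1, 2 or 4 (differences of -0.42 to -0.30, adjusted p 0.0523 to 0.0938). Of 10 dendritic cell genes 1 fell and 0 rose. Without wild type replicate 2, 1 of the 10 natural killer cell genes and 2 of the 10 dendritic cell genes fell. The dendritic cell gene called on all arrays was Batf3, a transcription factor that cross-presenting dendritic cells need, which read 4.03, 4.20, 3.70 and 4.01 on wild type arrays 1 to 4 and 3.40, 3.32, 3.54 and 3.50 on Sel1L knockout arrays 1 to 4, a difference of -0.54 (SE 0.112, limma adjusted p = 0.00665).

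Of 8 mast cell genes 1 rose and 0 fell. Cpa3, the carboxypeptidase of mast cell granules, read 5.98, 5.98, 5.81 and 5.56 on wild type arrays 1 to 4 and 6.27, 6.51, 6.40 and 6.32 on Sel1L knockout arrays 1 to 4. All knockout arrays lay above all wild type arrays, with a difference of 0.54 (SE 0.109, limma adjusted p = 0.00619), while the other 7 mast cell genes did not pass. Of the 8 differences 6 were negative and 2 positive, with a median of -0.15, or -0.17 without wild type replicate 2. Tpsb2, on this list, was lower on every knockout array than on any wild type array, at -0.25 (limma adjusted p = 0.0582). None of 5 eosinophil genes was called by limma's adjusted p (1 with an unadjusted p under 0.05). None of 8 genes of MHC class II presentation was called either (1 with an unadjusted p under 0.05), and their median difference was 0.28, or 0.17 without wild type replicate 2.

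**Figure D4:**
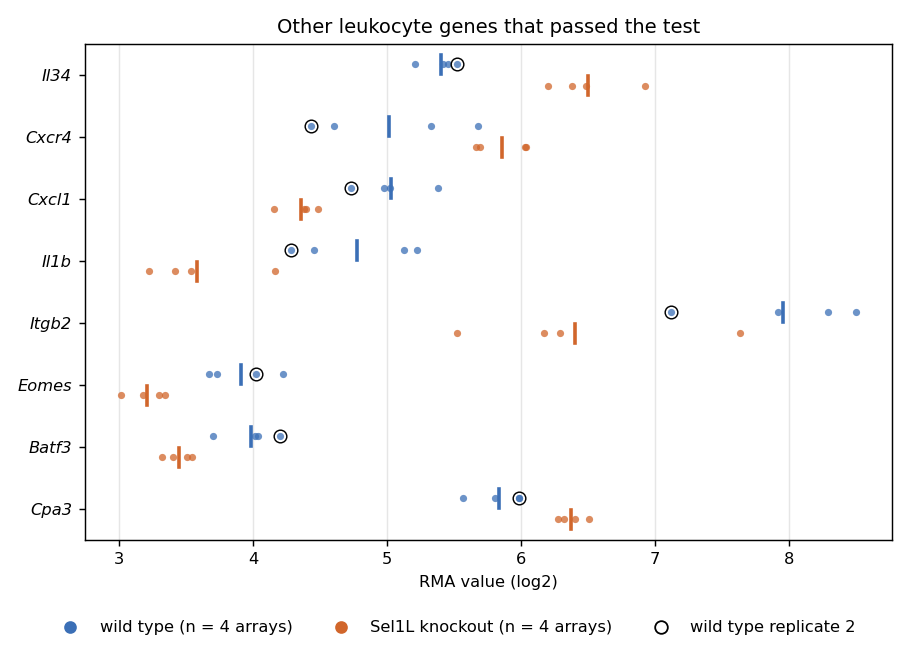
RMA values (log2, horizontal axis) of 8 leukocyte-related genes outside the marker list that passed the test; dots are arrays (4 per group), short bars are group means, and circles mark wild type replicate 2. Il34 and Cpa3 are higher, and Cxcl1, Il1b, Eomes and Batf3 lower, on every knockout array than on any wild type array, while the groups overlap narrowly for Cxcr4 and more widely for Itgb2.

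Among 18 ligands, chemokines and receptors that act on leukocytes, 3 rose and 1 fell (median difference -0.14), and without wild type replicate 2, 2 rose and 2 fell. Il34, a ligand of the macrophage receptor CSF1R, read 5.21, 5.52, 5.45 and 5.42 on wild type arrays 1 to 4 and 6.92, 6.38, 6.48 and 6.20 on Sel1L knockout arrays 1 to 4. The groups were well apart, with Il34 2.14-fold higher in knockout arrays, a difference of 1.10 (SE 0.147, limma adjusted p = 0.000767). Csf1, the other ligand of that receptor, differed by -0.14 (adjusted p = 0.591), or -0.30 (adjusted p = 0.2) without wild type replicate 2, and Csf1r itself, as given above, did not pass. Cxcl1, a chemokine that draws neutrophils, read 4.98, 4.73, 5.38 and 5.02 on wild type arrays 1 to 4 and 4.48, 4.39, 4.16 and 4.38 on Sel1L knockout arrays 1 to 4, all knockout arrays lying below all wild type arrays, and the difference was -0.67 (SE 0.135, limma adjusted p = 0.00612). Cxcr4, the receptor for CXCL12 on leukocytes and vessels, read 5.68, 4.43, 5.32 and 4.60 on wild type arrays 1 to 4 and 6.03, 6.03, 5.66 and 5.69 on Sel1L knockout arrays 1 to 4, a difference of 0.85 (SE 0.255, limma adjusted p = 0.0343), which was not called on leaving out Sel1L knockout replicate 1, 2, 3 or 4, or wild type replicate 2 or 4 (differences of 0.65 to 0.91, adjusted p 0.0564 to 0.0842) or after quantile normalization (adjusted p = 0.0711).

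Of 9 adhesion genes by which leukocytes and vessels bind, Pecam1 (CD31) rose, with a difference of 0.47 (SE 0.136, limma adjusted p = 0.0285), and 0 fell. Pecam1 is also an endothelial gene, and on the list of 8 endothelial genes 4 rose and 0 fell, with list means of 6.93 to 7.23 in wild type and 7.27 to 7.48 in knockout arrays. The call for Pecam1 was lost on leaving out Sel1L knockout replicate 1, 2, 3 or 4, or wild type replicate 1 or 2 (differences of 0.37 to 0.50, adjusted p 0.0504 to 0.0726).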

How the data were processed

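Total RNA of 8 mouse pancreas samples (100 ng each) was measured on whole-transcript arrays, per the labels' protocols. The authors deposited values made with RMA, per the submitters' processing notes; the sources used here do not give its version, the chip definition or which arrays were normalized together. The deposited values (0.964 to 14.4) are taken as log2 from their range. GEO's platform annotation gave 1 symbol for 21218 of 35556 features; the brightest feature stood for each of 18820 genes, with no level filter. Groups were compared with limma 3.58.1 (lmFit, eBayes; R 4.3.3), Benjamini-Hochberg adjustment over all genes and a threshold of 0.05. The fit was also run on simulated data with independent noise for each gene. It recovered 51% of 100 changes of 0.5 and 90% of 100 changes of 1 (log2), and 4 of 145 calls were false. The simulation held no shifts shared between genes and far fewer changed genes than were called here.

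Members and lists were chosen with earlier results of these data known. Every marker is named; per-array values are given for those called or not overlapping, for the 3 brightest of each cell type, and for Adgre1, Itgam, Cd14 and Pax5, chosen after their values were seen; of other lists up to 3 called genes are named. Csf1, Fcer1g, Lcn2, Tpsb2, the Ms4a, MHC class II and Itgax genes were picked after their values were seen. Of lists of other cells, 1 of 6 islet genes rose, and 1 of 5 duct, 1 of 7 adipocyte, 1 of 2 red blood cell and 4 of 6 acinar genes fell. Over all genes 16.1% rose and 12.6% fell. Upstream sequences are RefSeq's (GRCm38.p6). Alternatives were quantile normalization, median centring, cyclic loess, a level filter, averaged or separate features, trend and robust variance, array weights, a replicate block, leaving out each array, and the covariate added after seeing the data.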

Additional observations from a re-analysis of the deposited data

Results flagged for a closer look

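Among 66 sets of 4 arrays (32 markers and Sel1l in each group), 6 held 1 array farther from the rest than Dixon's critical value allows, where chance gives about 1 in 20. Sel1L knockout replicate 1 was the high array for Csf1r (8.74, against 7.64 to 7.70 in the other knockout arrays), for Cd163 (6.51, against 5.58 to 5.70), for Cd14 (6.42, against 5.71 to 5.74) and for Ms4a1 (3.37, against 2.87 to 2.92). Wild type replicate 3 was the high array for Cd3g (3.64, against 2.78 to 2.88 in wild type replicates 1, 2 and 4). Sel1l was lowest in Sel1L knockout replicate 4, at 11.45, against 11.66 to 11.70 in the other knockout arrays. Wild type replicate 2 met this criterion for 0 markers, although it was the lowest wild type array for 12 of 14 macrophage markers.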

How the results depend on the processing

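Ms4a7, Ebf1, Camp and Bcl11b kept their direction and their call in every setting that tested them; the filter on level left out Ms4a7, Camp and Bcl11b. Over all genes, 4229 were called after quantile normalization, 6226 after median centring and 4135 after cyclic loess, against 5406, and higher genes made up 42.9%, 36.3% and 48.1% of the calls, against 56.0%. Median centring moved the median of all genes to -0.11. Neutrophil and T cell calls came to 1 each after quantile normalization or cyclic loess; B cell calls came to 2 after median centring, with Pax5 added; macrophage calls came to 0 with the filter on level, which removed Ms4a7, and to 4 with the covariate. The cause was not tested where no construction is named. Leaving out each array gave 1 to 3 macrophage, neutrophil or T cell calls. The calls of Ltf, Trem1 and Cd8a were lost in 6, 8 and 7 of 16 planned settings. Ptprc ranged from -0.56 to 0.28 over those fits. Signs of uncalled markers turned there, with ranges of -1.27 to 0.17 for Lyz2, -0.32 to 0.43 for Csf1r, -0.32 to 0.00558 for C1qa, -0.33 to 0.55 for C1qb, -0.11 to 0.59 for C1qc, -0.70 to 0.0385 for Cd14, -0.28 to 0.0397 for Cx3cr1, -0.0159 to 0.20 for Fcgr1, -0.0595 to 0.23 for Cd3g, -0.64 to 0.42 for Cd68 and -0.21 to 0.87 for Jchain. Cd68 was -0.12 after quantile normalization, -0.0671 after median centring, -0.13 after cyclic loess, -0.13 with array weights and -0.18 with the covariate. Fcgr1 was -0.0115 and Cd3g -0.0523 after median centring, and Cd3g was -0.00781 with array weights and -0.00963 with the covariate. Same-numbered arrays of the groups did not deviate together (r from -0.27 to 0.22 over 18820 genes, and not every array correlated best with its own number), so the numbers were not taken as pairs; with the replicate number as a block 4678 genes were called, and the same 7 markers. Signal below the median level of all genes limits the neutrophil and T cell values and the B cell values other than Ebf1 (mean 6.95).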

Other observations

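The Ms4a family, to which the marker Ms4a7 belongs, had 17 measured genes, of which 2 rose and 1 fell, against 16.1% and 12.6% of all genes. The second that rose was Ms4a6b, which read 5.18, 5.16, 5.65 and 5.99 on wild type arrays 1 to 4 and 6.28, 5.86, 6.31 and 6.16 on Sel1L knockout arrays 1 to 4, a difference of 0.66 (SE 0.189, limma adjusted p = 0.0281). It was not called after cyclic loess (adjusted p = 0.0592) or on leaving out Sel1L knockout replicate 1, 3 or 4, or wild type replicate 1 or 2 (differences of 0.55 to 0.65, adjusted p 0.0588 to 0.0767). Ms4a15 fell, with a difference of -0.53 (SE 0.127, limma adjusted p = 0.0136). For Ms4a6c, Ms4a6d and Ms4a8a, as for most macrophage markers, wild type replicate 2 was the lowest wild type array, at 4.15, 4.38 and 3.87. Their differences were 0.65 (adjusted p = 0.325), 0.34 (adjusted p = 0.659) and -0.44 (adjusted p = 0.527) on all arrays, and 0.08 (adjusted p = 0.777), -0.27 (adjusted p = 0.52) and -0.97 (adjusted p = 0.0554) without wild type replicate 2, with the sign of Ms4a6d turned.

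The chains of C1q did not move alike in that array. C1qa read 7.76 in wild type replicate 2, close to 7.81 in wild type replicate 4, whereas C1qb read 7.47 against 9.55 and C1qc 6.72 against 8.21. The MHC class II genes H2-Aa, H2-Ab1 and H2-Eb1 had differences of 0.53 (adjusted p = 0.184), 0.65 (adjusted p = 0.183) and 0.55 (adjusted p = 0.117). Wild type replicate 2 was the lowest array for all 3, and without it they were 0.27 (adjusted p = 0.379), 0.31 (adjusted p = 0.37) and 0.32 (adjusted p = 0.212). With the covariate the last 2 passed, at 0.55 (SE 0.169, adjusted p = 0.033) and 0.48 (SE 0.126, adjusted p = 0.0165). In the same fit Il1b, Itgb2 and Itgax, the gene of CD11c, were lower, at -1.26 (SE 0.15, adjusted p = 0.000312), -1.67 (SE 0.23, adjusted p = 0.000703) and -1.05 (SE 0.243, adjusted p = 0.00962). Itgax was not called on all arrays without the covariate, with -0.91 (adjusted p = 0.172), and was without wild type replicate 2, with -1.33 (adjusted p = 0.0346). These genes were singled out after their values were seen.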
